A study of Mus musculus with 48 samples.

Results

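The circadian clock genes described here are 10 mouse genes: Arntl, Per1, Per2, Per3, Cry1, Nr1d1, Nr1d2, Dbp, Tef and Ciart. They were chosen by symbol, and all 10 were found among the 55471 genes counted in each library. In the GRCm38 annotation (GENCODE vM21) they are protein-coding genes, with Arntl on chr7:113207465-113314126, Per1 on chr11:69095217-69109960, Per2 on chr1:91415982-91459324, Per3 on chr4:151003652-151044665, Cry1 on chr10:85131700-85185064, Nr1d1 on chr11:98767932-98775333, Nr1d2 on chr14:18204054-18239127, Dbp on chr7:45705088-45710203, Tef on chr15:81802421-81826863 and Ciart on chr3:95878503-95882251. All 10 also passed the filter on low counts in each of the 8 comparisons. RNA was sequenced in 48 libraries, 30 of epididymal white adipose tissue (eWAT), a visceral fat depot of the mouse, and 18 of cells from eWAT labelled as F4/80, CD11b and CD64 positive macrophages. In eWAT there were 8 libraries labelled as adipose-specific TXNIP knockout (KO) and 8 labelled wild type (WT) on a ketogenic diet, a diet rich in fat and very low in carbohydrate, and 7 labelled KO and 7 labelled WT on a control diet. The macrophage-labelled cells gave 3 KO and 3 WT libraries on the ketogenic diet and 6 KO and 6 WT libraries on the control diet. The promoter that drives the deletion, the age of the animals and the hour at which tissue was taken are not given in the sources used here. Nothing in the labels says that the libraries of a group came from separate animals, so p-values measure the spread between these libraries.

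The mammalian clock is a loop of transcription that takes about a day. ARNTL, also called BMAL1, pairs with CLOCK or its relative NPAS2 and activates genes through E-box sequences. Among these are the Per and Cry genes, whose proteins return to the nucleus and block the activator, and Ciart, which encodes a further repressor of it. The same activator drives Nr1d1 and Nr1d2, which encode the nuclear receptors REV-ERB alpha and beta; these bind ROR elements and repress Arntl. Dbp and Tef encode PAR bZIP proteins that activate genes such as the Per genes through D-box sequences. Transcripts of Arntl and of Dbp reach their peaks at nearly opposite hours, in fat as in other organs. Adipose tissue has such a clock of its own, known for daily rhythms of lipid handling.

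Some promoter windows of the members hold sequence elements of this loop, and 4 are shown because each carries a different arrangement of them. The sequences are from RefSeq (GRCm38.p6) and run from 250 bases before to 50 bases after an annotated start site, 5′ to 3′ on the strand of the gene; 9 of the 10 members matched a window, in 12 windows together, and Per2 was not among them. Capitals mark the motif matches. The ROR element is in the second Arntl window (chr7:113207261-113207560, plus strand), 2 D-boxes are in the Per3 window (chr4:151044616-151044915, minus strand), 3 E-boxes are in the Ciart window (chr3:95882179-95882478, minus strand), and an E-box with a noncanonical E-box is in the Cry1 window (chr10:85185005-85185304, minus strand).
Arntl: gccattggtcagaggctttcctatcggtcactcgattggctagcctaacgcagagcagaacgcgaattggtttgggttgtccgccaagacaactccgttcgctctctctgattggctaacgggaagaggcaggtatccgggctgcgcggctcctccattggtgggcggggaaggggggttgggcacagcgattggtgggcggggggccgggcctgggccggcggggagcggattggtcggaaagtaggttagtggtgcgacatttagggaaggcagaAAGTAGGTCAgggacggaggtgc
Per3: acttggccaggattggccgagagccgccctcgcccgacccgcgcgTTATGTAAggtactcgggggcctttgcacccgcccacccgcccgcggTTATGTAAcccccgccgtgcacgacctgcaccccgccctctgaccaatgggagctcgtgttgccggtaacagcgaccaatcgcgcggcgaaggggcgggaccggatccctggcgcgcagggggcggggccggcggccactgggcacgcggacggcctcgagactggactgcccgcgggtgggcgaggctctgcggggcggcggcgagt
Ciart: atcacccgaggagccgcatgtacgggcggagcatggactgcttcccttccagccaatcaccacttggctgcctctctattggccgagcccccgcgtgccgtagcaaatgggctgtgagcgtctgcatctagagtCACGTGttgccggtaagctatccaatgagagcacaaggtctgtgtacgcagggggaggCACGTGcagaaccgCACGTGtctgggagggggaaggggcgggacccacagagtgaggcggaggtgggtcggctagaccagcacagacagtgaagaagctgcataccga
Cry1: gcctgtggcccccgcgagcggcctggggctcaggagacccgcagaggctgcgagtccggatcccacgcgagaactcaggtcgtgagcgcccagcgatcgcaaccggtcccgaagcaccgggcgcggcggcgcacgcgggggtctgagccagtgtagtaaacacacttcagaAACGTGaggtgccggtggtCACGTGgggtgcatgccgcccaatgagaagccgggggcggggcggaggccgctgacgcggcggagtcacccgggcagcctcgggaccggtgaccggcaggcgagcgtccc

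Both strands of each window were searched for the E-box CACGTG, the noncanonical E-box CACGTT, the D-boxes TTATGTAA and TTACGTAA, the ROR element (the core AGGTCA with AANT before it), the core alone, and the element TGACGTCA that CREB binds. Of 32851 mouse windows of this length, 7.15% held CACGTG, 4.68% CACGTT, 0.938% TTATGTAA, 0.119% TTACGTAA, 0.219% the ROR element, 16.3% AGGTCA and 1.79% TGACGTCA. Each ROR element match contains a match of the core, so those counts overlap. Besides the windows shown, CACGTG was found in 1 of the Per1 windows and in both Tef windows, CACGTT in the Nr1d1 window, and AGGTCA in the Nr1d2 window and in the same Per1 window. The Dbp window held none of these letters. These matches are descriptions of sequence, and binding was not measured.

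Library checks bear on how the comparisons can be read. Gene counts per library ran from 17.4 M to 59.8 M reads. Txnip, the gene named as deleted, averaged 2669 ± 293 CPM (gene counts scaled to the normalized library size) in eWAT labelled KO and 1656 ± 180 CPM in eWAT labelled WT on the control diet (SD, n = 7 each), with no overlap. On the ketogenic diet it was also higher in eWAT labelled KO (log2 difference 0.35 ± 0.09, SE, edgeR adjusted p = 0.044), with overlap. Between macrophage labels it was not called (0.08 on the control and -0.02 on the ketogenic diet). In eWAT the gene thus goes against the label, and genotypes are given below as labels. Gm11868, Zfp949 and Eif4a2 separated the genotype labels without overlap, in the same direction, in eWAT on both diets and in macrophage-labelled libraries on the control diet. By the midpoint between the labels in the last of these, 4 of the 6 ketogenic macrophage-labelled libraries lay on the side of the other label for all 3 genes (KO replicates 2 and 3, WT replicates 1 and 2). Eif4a2 in WT replicate 2 (183.7 CPM) lay between the control-diet ranges, KO from 206.6 CPM and WT up to 159.6 CPM. Summed macrophage markers did not stand higher in macrophage-labelled libraries than in whole eWAT. The sum of 6 markers was 172 to 322 CPM in macrophage-labelled libraries and 258 to 602 CPM in eWAT, with no marker at 0. For 4 endothelial markers the sum was 3338 to 4191 CPM in macrophage-labelled libraries and 580.7 to 918 CPM in eWAT. Summed immediate early genes reached 28383 to 36297 CPM in macrophage-labelled libraries and 77.5 to 165 CPM in eWAT. Library kit and normalization differ between the tissues, so these sums were not tested across them. The titles place each diet of each tissue in a library set of its own, so diet, library set and any difference in the hour of collection between sets cannot be told apart.

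**Figure D1:**
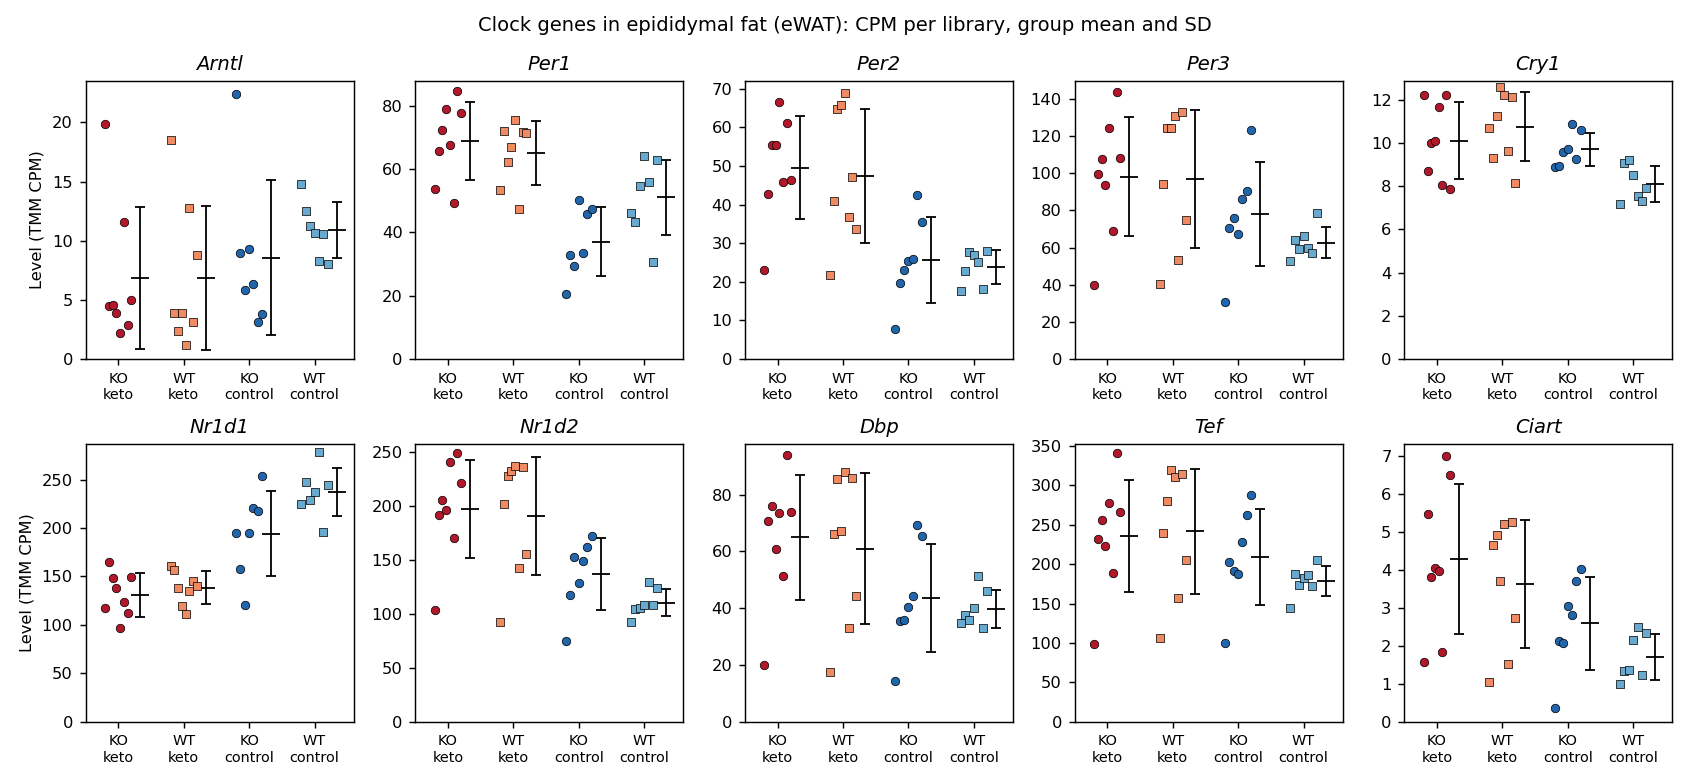
Level of each member in eWAT in TMM-normalized CPM (vertical axes), 1 point per library; horizontal bars are group means and whiskers SDs, with KO and WT labels on the ketogenic diet at the left and on the control diet at the right. Nr1d1 is lower on the ketogenic diet, while Per2 and Nr1d2 are higher for most libraries, and single libraries stand far from their group in Arntl.

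Per kb of exon, Nr1d1 was the most abundant member in every group. On the ketogenic diet it averaged 42.6 ± 7.35 CPM per kb in eWAT labelled KO and 45.0 ± 5.49 in eWAT labelled WT (SD, n = 8 each), and on the control diet 63.1 ± 14.2 under the KO label and 76.9 ± 8.07 under the WT label (SD, n = 7 each). In the WT-labelled control group Tef (22.7 ± 2.37 CPM per kb), Nr1d2 (20.4 ± 2.32), Dbp (13.3 ± 2.22), Per1 (9.06 ± 2.11), Per3 (6.51 ± 0.87), Per2 (4.06 ± 0.75), Cry1 (2.43 ± 0.25), Arntl (1.45 ± 0.31) and Ciart (0.75 ± 0.27) followed. The ranges of neighbours in that order overlapped except between Nr1d1 and Tef, Per3 and Per2, Per2 and Cry1, and Cry1 and Arntl. On the ketogenic diet the range of Nr1d1 overlapped that of Nr1d2, the next in order, in both genotype labels of eWAT. Ciart rested on few reads, with as few as 14 in 1 eWAT library.

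In macrophage-labelled libraries the order differed. Under the WT label on the control diet Nr1d1 (31.0 ± 12.2 CPM per kb, SD, n = 6) came before Nr1d2 (14.0 ± 7.43), Cry1 (13.9 ± 1.18), Arntl (10.6 ± 1.34) and Tef (10.5 ± 3.98), and Per3 (1.23 ± 0.31) and Ciart (0.72 ± 0.17) were lowest. Arntl, which was the lowest member or next to lowest in each eWAT group, was thus in the middle of the order in that group. In the ketogenic macrophage-labelled libraries it stood at rank 8 of 10, at 4.70 ± 1.77 CPM per kb under the KO label and 4.74 ± 1.70 under the WT label (SD, n = 3 each). Normalization and library kit differ between the tissues, so no test was made across them. Exons of Nr1d1, Dbp, Arntl and Tef overlap genes of the opposite strand (Thra, Sphk2, Gm45355 and Gm17597), and macrophage-labelled counts carry no strand, so their levels there can include reads of these neighbours.

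Between the diets, all 10 members changed in macrophage-labelled libraries: 9 rose and Arntl fell in the 6 ketogenic libraries relative to the 12 control-diet libraries, both genotype labels pooled. Dbp was 3.66-fold, Per2 3.34-fold and Ciart 3.29-fold higher, and Arntl stood at 0.46 times its control-diet level. Of all 17573 genes tested in this comparison 30.4% were called at an edgeR adjusted p under 0.05, 14.3% higher and 16.1% lower, and the median log2 fold change was 1.03 over the 10 members and -0.02 over all genes. Levels of 8 members did not overlap between the diets, nor did those of 8.27% of all genes tested.

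**Figure D2:**
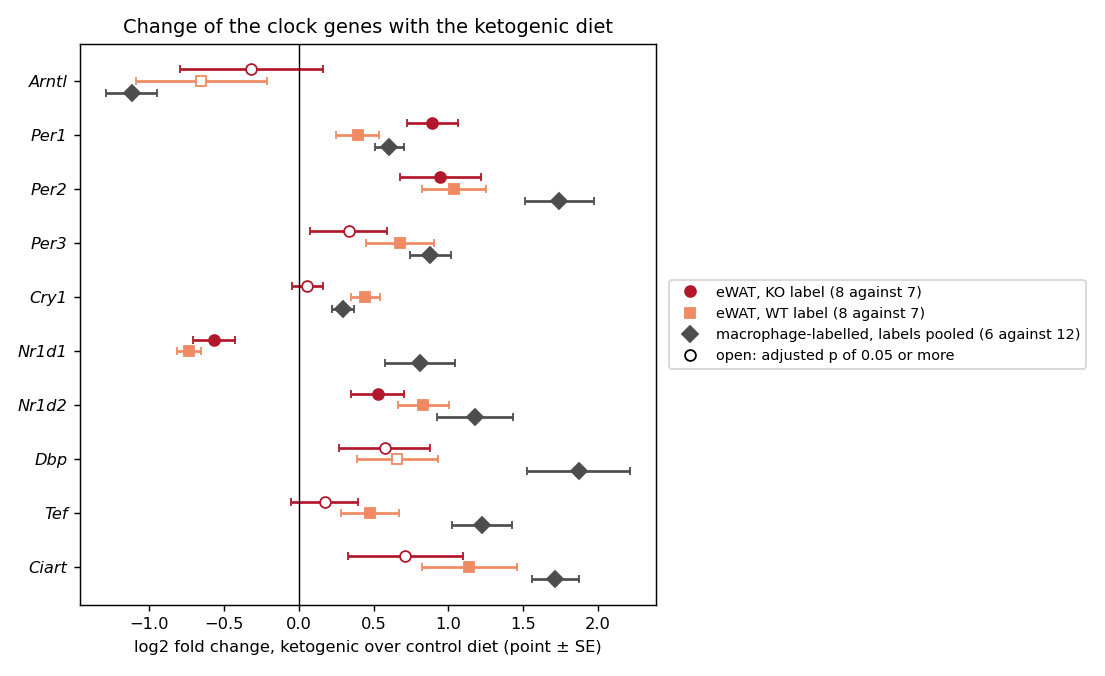
Fitted log2 fold change of each member, ketogenic over control diet (horizontal axis), with its SE, in eWAT labelled KO, in eWAT labelled WT and in macrophage-labelled libraries with both labels pooled; filled symbols passed an adjusted p of 0.05. Arntl lies left of 0 in all 3 comparisons, Nr1d1 lies left of 0 in eWAT and right of 0 in macrophage-labelled libraries, and the remaining members lie right of 0.

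Arntl, the activator, had 43.2, 42.9 and 20.02 CPM in the KO and 25.0, 32.2 and 49.9 CPM in the WT macrophage-labelled libraries on the ketogenic diet. On the control diet it had 52.1 CPM at the lowest, 79.4 at the median and 97.3 at the highest under the KO label, and 67.7, 78.0 and 91.4 CPM under the WT label. Every ketogenic library was below every control-diet library, and the log2 fold change was -1.12 ± 0.17 (edgeR adjusted p = 9.2e-05).

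Among the repressors, Per2 had 82.2, 70.7 and 104.8 CPM in the KO and 101.4, 62.1 and 63.5 CPM in the WT libraries on the ketogenic diet, against a lowest, median and highest of 15.8, 22.6 and 36.5 CPM under the KO label and 11.7, 22.1 and 47.7 CPM under the WT label on the control diet. The diets did not overlap, and Per2 rose by 1.74 ± 0.23 on the log2 scale (edgeR adjusted p = 2.3e-05). Ciart had 6.26, 5.28 and 6.65 CPM in the KO and 5.69, 3.39 and 3.601 CPM in the WT ketogenic libraries, against 1.15, 1.57 and 1.82 CPM (KO) and 0.99, 1.63 and 2.16 CPM (WT) at the lowest, median and highest on the control diet. It again showed no overlap and had the smallest adjusted p of the members (1.72 ± 0.16, edgeR adjusted p = 5.3e-07). Per1, which is also an immediate early and glucocorticoid-induced gene, rose by 0.60 ± 0.10, with 61.3 to 76.2 CPM in the 6 ketogenic and 33.6 to 56.9 CPM in the 12 control-diet libraries. Per3 rose by 0.88 ± 0.13, with 16.8 CPM in its lowest ketogenic and 16.5 CPM in its highest control-diet library. Cry1 rose least, by 0.29 ± 0.07 (55.8 ± 5.98 CPM on the ketogenic diet, n = 6, and 45.6 ± 4.42 CPM on the control diet, n = 12, SD), and its diets overlapped.

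The REV-ERB genes both rose. Nr1d2 had 150.6 to 237 CPM in the 6 ketogenic libraries and 27.9 to 148.6 CPM in the 12 control-diet libraries (1.18 ± 0.26, edgeR adjusted p = 0.0023), without overlap. Nr1d1 had 197.2, 189.2 and 209.6 CPM in the KO and 224.2, 186.3 and 145.5 CPM in the WT ketogenic libraries, against 72.5, 101.9 and 203.8 CPM (KO) and 66.7, 77.6 and 160.4 CPM (WT) at the lowest, median and highest on the control diet. Here the diets overlapped, control-diet replicates 5 and 6 being the highest of both labels, and the log2 fold change was 0.81 ± 0.23 (edgeR adjusted p = 0.014). The 2 PAR bZIP genes rose as well. Dbp had 49.5, 48.8 and 63.2 CPM in the KO and 56.7, 43.6 and 31.3 CPM in the WT ketogenic libraries, against 6.44, 11.6 and 30.8 CPM (KO) and 5.87, 7.51 and 22.9 CPM (WT) at the lowest, median and highest on the control diet (1.87 ± 0.35, edgeR adjusted p = 6.2e-04). Only a small gap parted its lowest ketogenic from its highest control-diet library. Tef had 148.7 to 246.7 CPM in the ketogenic and 45.95 to 142.5 CPM in the control-diet libraries (1.22 ± 0.20, edgeR adjusted p = 2.2e-04).

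**Figure D3:**
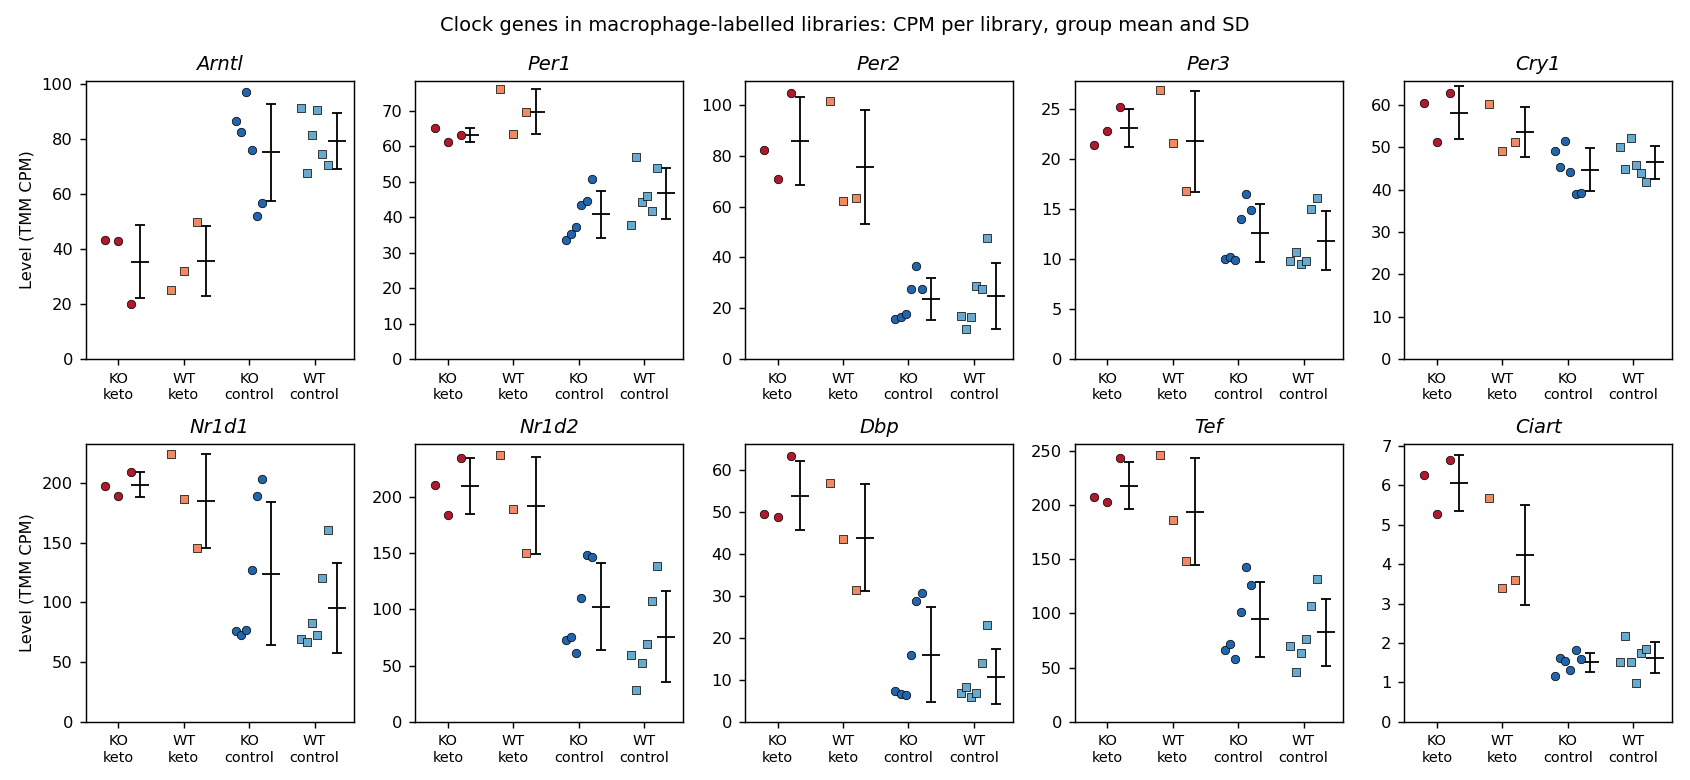
Level of each member in macrophage-labelled libraries in TMM-normalized CPM (vertical axes), 1 point per library; horizontal bars are group means and whiskers SDs, with KO and WT labels on the ketogenic diet at the left (3 libraries each) and on the control diet at the right (6 each). Arntl is lower and Per1, Per2, Per3, Nr1d2, Dbp, Tef and Ciart are higher in all 6 ketogenic than in all 12 control-diet libraries.

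All 10 calls were kept when any 1 library was left out. When the 4 libraries that go against their genotype label were left out, an alternative chosen after seeing the data that leaves 1 ketogenic library of each label, 4 members passed: Arntl (-0.72 ± 0.19), Per1 (0.63 ± 0.15), Per2 (1.60 ± 0.34) and Ciart (1.66 ± 0.22). Of all genes 856 were then called, against 5348 with all 18 libraries. The other 6 kept their direction, from 0.30 for Cry1 to 1.60 for Dbp. Some cell markers moved with the contrast of all 18 libraries, in which 30.4% of all genes were called. Of the 6 macrophage markers 5 were lower on the ketogenic diet, their sum being 172 to 189 CPM (KO) and 182 to 243 CPM (WT) on the ketogenic and 256 to 304 CPM (KO) and 172 to 322 CPM (WT) on the control diet. All 4 T cell markers were higher, with sums of 3.26 to 9.06 CPM (KO) and 5.38 to 8.32 CPM (WT) against 1.65 to 2.78 CPM (KO) and 2.18 to 5.41 CPM (WT). The epididymal marker Crisp1 reached 21.8 CPM in a KO and 6.81 CPM in a WT ketogenic library and at most 0.049 CPM on the control diet, while Lcn5 and Defb1 were at 0. The part of these markers in the change of the clock genes was not tested. In tissue or pooled cells, fewer cells of a type and less RNA per cell cannot be told apart.

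In eWAT labelled WT, 7 members rose on the ketogenic diet and Nr1d1 fell. In this comparison 53.8% of all genes tested were called, 26.8% higher and 27.0% lower, beside which the 8 of 10 members called are to be read. The median log2 fold change was 0.57 over the members and -0.01 over all genes. In eWAT labelled KO, 3 members rose and Nr1d1 fell, 4 of 10 called, where 39.5% of all genes were called (19.8% higher and 19.7% lower), a share near that of the members. Some cell markers moved with diet here too, where 39.5% (KO label) and 53.8% (WT label) of all genes were called. Of 6 macrophage markers 2 were lower under the KO label and 4 under the WT label on the ketogenic diet, with sums of 331 to 488 CPM (KO) and 258 to 337 CPM (WT) on the ketogenic and 421 to 602 CPM (KO) and 415 to 516 CPM (WT) on the control diet. Of 4 B cell markers 3 were lower under the KO label and 4 under the WT label, with sums of 3.53 to 16.9 CPM (KO) and 1.94 to 15.8 CPM (WT) on the ketogenic and 6.61 to 28.5 CPM (KO) and 6.55 to 33.0 CPM (WT) on the control diet. Of 6 adipocyte markers 2 were lower under the KO label and 3 under the WT label, with sums of 9052 to 11205 CPM (KO) and 10924 to 12678 CPM (WT) on the ketogenic and 10046 to 13508 CPM (KO) and 14134 to 18524 CPM (WT) on the control diet, without overlap under the WT label. The counts of adipocyte markers under both labels and of macrophage markers under the KO label were not above the shares of all genes. Of 4 markers each, 2 endothelial were higher and 2 T cell and 2 mesothelial lower under the WT label. Under the KO label 0 of these were called. Depth moved with diet as well, at 21.0 M to 39.0 M (KO) and 17.4 M to 25.1 M (WT) gene counts on the ketogenic and 35.1 M to 51.7 M (KO) and 34.7 M to 59.8 M (WT) on the control diet. The part of markers and depth in the values of the clock genes was not tested.

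Nr1d1 had the smallest adjusted p of the members in eWAT labelled WT, and Per1 in eWAT labelled KO. Under the WT label Nr1d1 had 112 CPM at the lowest, 139 at the median and 161 at the highest on the ketogenic diet, and 196, 237 and 278 CPM on the control diet. It was the single member without overlap, beside 21.1% of all genes tested. The 8 ketogenic libraries were all below the 7 control-diet libraries (-0.73 ± 0.08, edgeR adjusted p = 1.1e-06), as were those of 11.5% of all genes tested. Under the KO label it had 97.0, 131 and 164 CPM on the ketogenic and 121, 195 and 253 CPM on the control diet (-0.57 ± 0.14, edgeR adjusted p = 0.0042), and the groups overlapped, as they did for every member under this label (12.4% of all genes did not overlap). Its close relative Nr1d2 went the other way. It rose by 0.83 ± 0.17 under the WT label (190.5 ± 54.2 CPM on the ketogenic and 110.1 ± 12.5 CPM on the control diet, SD, n = 8 and 7) and by 0.53 ± 0.18 under the KO label (197 ± 45.7 CPM on the ketogenic and 137 ± 33.1 CPM on the control diet). The fall of Nr1d1 in eWAT and its rise in macrophage-labelled libraries come from separate fits with different kits, and the difference between them was not tested.

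Per1 and Per2 rose in eWAT under both labels. Per2 had 21.8, 44.0 and 68.9 CPM (lowest, median, highest) on the ketogenic and 17.6, 25.1 and 28.1 CPM on the control diet under the WT label (1.04 ± 0.22, edgeR adjusted p = 8.2e-04), and 23.1, 50.9 and 66.5 CPM on the ketogenic against 7.71, 25.3 and 42.6 CPM on the control diet under the KO label (0.95 ± 0.27, edgeR adjusted p = 0.012). Of the ketogenic libraries labelled WT, only replicate 1 lay within the control-diet range of that label. Per1 rose by 0.89 ± 0.17 under the KO label (68.7 ± 12.3 CPM on the ketogenic and 37.0 ± 10.9 CPM on the control diet, edgeR adjusted p = 6.7e-04) and by 0.39 ± 0.14 under the WT label (65.1 ± 10.1 CPM on the ketogenic and 51.0 ± 11.9 CPM on the control diet, edgeR adjusted p = 0.030). Per3 rose under the WT label (0.68 ± 0.23, 96.9 ± 37.0 CPM on the ketogenic and 62.5 ± 8.35 CPM on the control diet) and differed by 0.33 ± 0.26 under the KO label without passing.

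Cry1, Ciart and Tef passed under the WT label and not under the KO label. Cry1 rose by 0.45 ± 0.10 under the WT label, with 10.7 ± 1.60 CPM on the ketogenic and 8.11 ± 0.83 CPM on the control diet, and differed by 0.06 ± 0.10 under the KO label. Ciart rose by 1.14 ± 0.32 (3.64 ± 1.69 CPM on the ketogenic and 1.70 ± 0.61 CPM on the control diet, WT) and differed by 0.71 ± 0.39 (KO). Tef rose by 0.48 ± 0.19 (WT, edgeR adjusted p = 0.049) and differed by 0.17 ± 0.23 (KO). Dbp differed by 0.66 ± 0.27 (WT, edgeR adjusted p = 0.052) and 0.57 ± 0.30 (KO), and passed under neither label. A pass under 1 label only is not a difference between labels: the test of that difference, given with the genotypes below, passed for no member.

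Arntl did not pass in eWAT, where a few libraries held high values. Under the WT label it had 1.17 CPM at the lowest, 3.87 at the median and 18.5 at the highest on the ketogenic diet, and 7.99, 10.7 and 14.8 CPM on the control diet (-0.65 ± 0.44, edgeR adjusted p = 0.22). Of these 8 ketogenic libraries, replicates 1 and 6 (18.5 and 12.8 CPM) lay far above the median, replicate 8 had 8.81 CPM, and the other 5 lay below every control-diet library. Under the KO label it had 2.21, 4.54 and 19.9 CPM on the ketogenic and 3.17, 6.38 and 22.4 CPM on the control diet (-0.32 ± 0.48, edgeR adjusted p = 0.63).

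Whether a member passed changed in some cases when 1 library was left out. Without WT ketogenic replicate 1, Arntl passed under the WT label (-1.05), and so did Dbp (0.80). Dbp also passed there without WT ketogenic replicate 6 (0.75) or 8 (0.72) or WT control replicate 5 (0.73), and under the KO label without KO ketogenic replicate 1 (0.71). The call of Tef under the WT label ended without any of 12 of the 15 libraries, all except WT ketogenic replicates 1, 6 and 8, with values of 0.40 to 0.49. That of Per1 ended without any of WT control replicates 1 and 2 or WT ketogenic replicates 2, 5, 7 and 8 (0.33 to 0.38). Under the KO label the call of Nr1d2 ended without KO control replicate 2 or KO ketogenic replicate 5 or 7 (0.46 to 0.49), and Arntl changed direction without KO control replicate 1 (0.13). Under the WT label Arntl passed with limma-voom (-1.20) and Dbp with DESeq2 (0.66) and a GC offset (1.00), while without the filter on low counts Per1 (0.35), Per3 (0.63) and Tef (0.43) did not pass; Tef also missed with limma-voom (0.44), with unstranded counts (0.47) and, like Per1, with all 4 groups in one fit. Under the KO label Nr1d2 did not pass without the filter (0.51) or with the GC offset (0.46).

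Between the genotype labels, few members differed. In eWAT on the control diet Cry1 was called, at 9.69 ± 0.77 CPM under the KO label and 8.11 ± 0.83 CPM under the WT label (SD, n = 7 each, 0.26 ± 0.08, edgeR adjusted p = 0.029), where 16.0% of all genes tested were called and 4.41% were called higher. The labels overlapped in its level. The call of Cry1 ended without any of KO replicates 4, 5 and 7 or WT replicates 1, 5 and 6 (0.23 to 0.26), and likewise without the filter on low counts (0.25) or with all 4 groups in one fit (0.26). Without KO replicate 1, the library with 22.4 CPM of Arntl and 14.3 CPM of Dbp, 6 members passed: Arntl was lower (-0.80 ± 0.23), and Per3 (0.46 ± 0.14), Cry1 (0.28 ± 0.08), Nr1d2 (0.42 ± 0.10), Tef (0.34 ± 0.11) and Ciart (0.80 ± 0.24) were higher under the KO label. Calls over all genes rose as well, to 3015 without that library against 2677 with it. With all 7 libraries Arntl had 3.17, 6.38 and 22.4 CPM (lowest, median, highest) under the KO label and 7.99, 10.7 and 14.8 CPM under the WT label (-0.34 ± 0.35, edgeR adjusted p = 0.53). KO replicates 3, 5, 6 and 7 lay below the WT range, replicates 2 and 4 within it and replicate 1 above it. Of the 6 adipocyte markers 4 were called lower under the KO label, the sum of the 6 being 10046 to 13508 CPM (KO) and 14134 to 18524 CPM (WT), and their part in these values was not tested.

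On the ketogenic diet no member of eWAT was called between the labels, where 3.36% of all genes were; none had an unadjusted p under 0.05, and DESeq2 and limma-voom called none. The log2 differences ran from -0.09 for Cry1 to 0.22 for Ciart, with SEs of 0.10 to 0.55. Arntl averaged 6.82 ± 6.01 CPM under the KO label and 6.82 ± 6.09 CPM under the WT label (0.03 ± 0.55). That SE comes from a fit that leaves out the shared replicate numbers, and moderate differences were not detectable in that fit. With a replicate block 0 members were called as well. The interaction of genotype label and diet also passed for no member, with 8.31% of all genes called. In it Per1 (0.54 ± 0.23) and Cry1 (-0.35 ± 0.14) had an unadjusted p under 0.05, and DESeq2 and limma-voom called none.

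In macrophage-labelled libraries no member was called between the labels on the control diet, where 0.0820% of all genes were, and none had an unadjusted p under 0.05 or was called by DESeq2 or limma-voom. Dbp showed the widest difference, 0.57 ± 0.47, with 15.95 ± 11.3 CPM under the KO label and 10.8 ± 6.65 CPM under the WT label (SD, n = 6 each). On the ketogenic diet 0.00% of all genes were called. Among the members Ciart alone had an unadjusted p under 0.05 (0.52 ± 0.21, edgeR adjusted p = 1.00), and DESeq2 and limma-voom called none. The labels of these 6 libraries are doubtful for 4, as given above, so no direction is drawn from them.

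Within some groups the libraries varied widely in Arntl. On the ketogenic diet the highest eWAT library exceeded the lowest by 8.99-fold for Arntl under the KO label and by 15.9-fold under the WT label, and by 1.69-fold (KO) and 1.44-fold (WT) for Nr1d1. On the control diet the range of Arntl was 7.07-fold (KO) and 1.85-fold (WT) in eWAT, and 1.87-fold (KO) and 1.35-fold (WT) in macrophage-labelled libraries. In eWAT labelled KO, ketogenic replicate 1 had 19.9 CPM of Arntl with 20.1 CPM of Dbp, whereas replicate 7 had 2.91 CPM of Arntl with 94.0 CPM of Dbp. In eWAT labelled WT, ketogenic replicate 1 had 18.5 CPM of Arntl with 17.6 CPM of Dbp, whereas replicate 5 had 1.17 CPM of Arntl with 87.8 CPM of Dbp. In these pairs the library high in Arntl was low in Dbp.

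**Figure D4:**
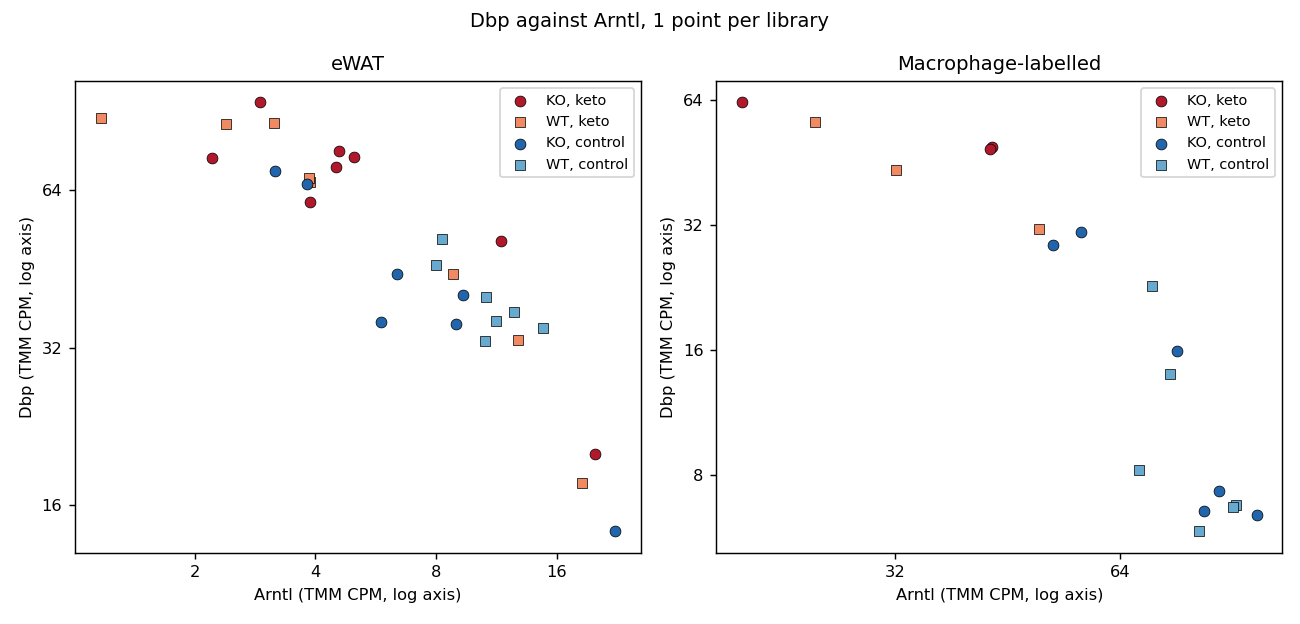
Dbp against Arntl in TMM-normalized CPM on log axes, 1 point per library, in eWAT at the left and in macrophage-labelled libraries at the right, by genotype label and diet. In eWAT the points of every group fall from upper left to lower right, and in macrophage-labelled libraries the ketogenic points lie at the upper left of the control-diet points.

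To describe this, log2 CPM of Arntl was correlated with that of each other member within each of the 6 groups with at least 6 libraries, 54 relations in all. Pearson's r was negative in 48, and 29 passed an exact two-sided permutation test after Benjamini-Hochberg adjustment, 28 of them negative and 21 of them in eWAT. By Spearman's rho 13 passed. The same count was not made over all genes, so whether this share is particular to the members was not tested. Members also varied with each other, so the 54 relations are not separate pieces of evidence. Without the 2 libraries farthest from the median of Arntl, r was negative in 44. Nr1d2 and Ciart passed in 5 of the 6 groups each, Per2, Per3, Dbp and Tef in 4 each, and Per1, Cry1 and Nr1d1 in 1 each. For Dbp in eWAT labelled WT on the ketogenic diet r was -0.93 (exact permutation p = 7.4e-05, adjusted 0.0040) and rho was -0.98 (exact permutation p = 4.0e-04, adjusted 0.021), over 8 libraries, and r was -0.99 without the 2 farthest. For Nr1d2 in eWAT labelled WT on the control diet r was -0.98 (exact permutation p = 0.0012, adjusted 0.0064) and rho was -0.93 (exact permutation p = 0.0067, adjusted 0.033), over 7 libraries, and r was -0.96 without the 2 farthest.

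Of the 6 relations that were not negative, 3 were of Cry1, 2 of Nr1d1 and 1 of Nr1d2 (r = 0.02, macrophage-labelled libraries labelled WT on the control diet). Cry1 followed Arntl in macrophage-labelled libraries labelled KO on the control diet, the single positive relation that passed (r = 0.97, and 0.96 without the 2 farthest). Nr1d1 had in eWAT on the ketogenic diet an r of 0.09 under the KO and 0.59 under the WT label, and on the control diet an r of -0.23 under the KO and -0.44 under the WT label, and none of these 4 passed. Without the 2 farthest libraries these became, in the same order, 0.96, -0.10, -0.37 and -0.45, so the 2 ketogenic values depend on those libraries. Under the KO label on the ketogenic diet the relations of Arntl with Per1, Dbp and Ciart rested on the 2 farthest libraries, since r was 0.02, -0.31 and 0.16 without them. In macrophage-labelled libraries labelled WT on the control diet only Ciart passed (r = -0.85, and -0.96 without the 2 farthest).

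Libraries with the same replicate number in the 2 genotype labels also stood alike, a relation examined after seeing the data. In eWAT on the ketogenic diet replicate 1 was the highest of both labels in Arntl (19.9 CPM in KO and 18.5 CPM in WT) and replicate 6 was next (11.6 CPM in KO and 12.8 CPM in WT), while replicate 5 was the lowest of both (2.21 CPM in KO and 1.17 CPM in WT). Over the 10 members, r between same-numbered libraries was positive in all 10, with a median of 0.87, and 5 passed the exact permutation test adjusted over 30 such relations: Arntl (0.91), Per2 (0.89), Per3 (0.89), Dbp (0.90) and Tef (0.88), over 8 pairs each. None of the 30 passed by Spearman's rho, which was 0.86 for Arntl (adjusted exact permutation p = 0.16). Without the 2 farthest pairs r fell to 0.77 for Arntl, 0.38 for Per3 and 0.34 for Dbp, so that the last 2 rest on those pairs. It was then positive for 7 of the 10 members, and stood at -0.19 for Per1, -0.49 for Nr1d1 and -0.28 for Ciart. Across expressed genes, deviations from the group means also correlated between same-numbered libraries, at 0.10 to 0.43 over the 8 pairs. The count of relations that pass was not made over all genes. In eWAT on the control diet and in macrophage-labelled control-diet libraries r was positive for 9 and 10 of the members, and none passed. Without the 2 farthest pairs it was positive for 6 members in each.

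**Figure D5:**
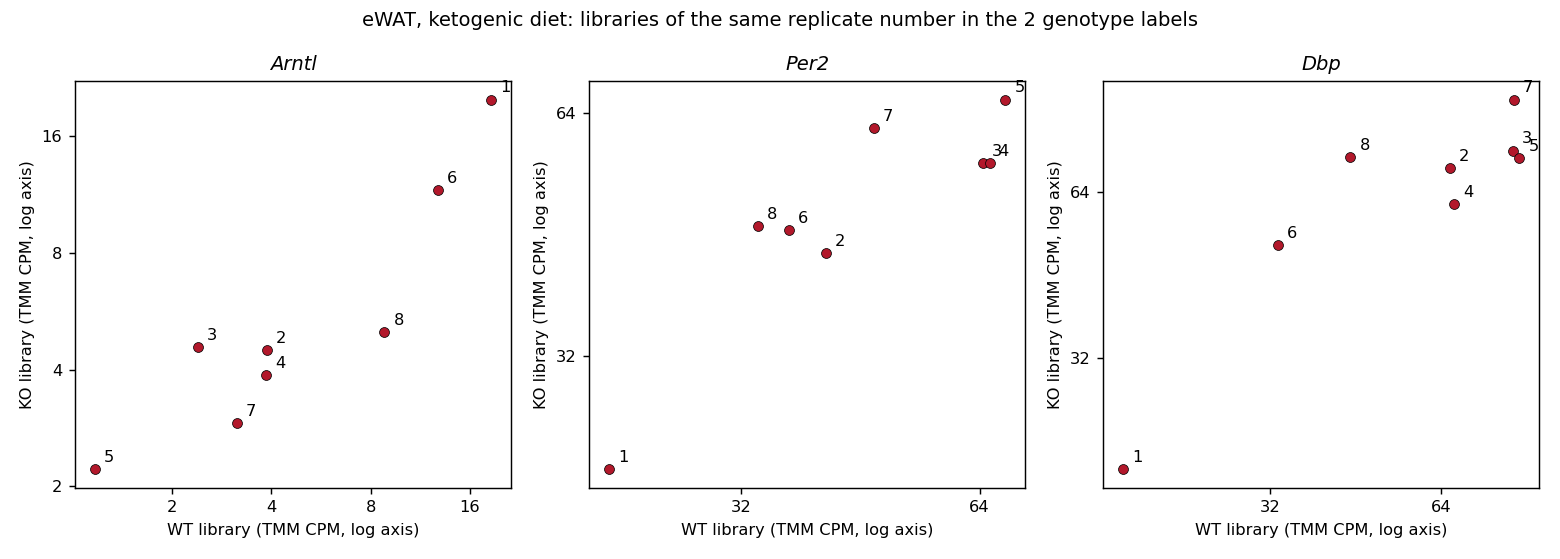
Levels in TMM-normalized CPM on log axes of Arntl, Per2 and Dbp in eWAT on the ketogenic diet, KO library (vertical axis) against the WT library of the same replicate number (horizontal axis), with the number beside each of the 8 points. Replicate 1 is highest in Arntl and lowest in Per2 and Dbp under both labels.

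Over the 30 eWAT libraries, after taking out group means, 11768 genes were ranked by Pearson's r with Arntl and with Dbp. These genes averaged 2 CPM or more and had an ordinary symbol (no Gm number, Rik or accession-like name). The genes most like Arntl were Npas2, the relative of Clock that can pair with ARNTL (r = 0.91), Dtx4 (0.90), Adamts4, a secreted protease (0.89), Plekhg1 (0.87) and Arhgap20 (0.85). The 5 genes most like Dbp were all members: Tef (0.97), Nr1d2 (0.97), Per3 (0.96), Ciart (0.91) and Per2 (0.90). These values are descriptions over libraries that share a kit and differ in depth.

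Of 14 other clock genes, 6 rose and 4 fell with the ketogenic diet in macrophage-labelled libraries, where 14.3% of all genes tested were called higher and 16.1% lower. Bhlhe41, which encodes the repressor DEC2, rose by 0.91 ± 0.10, Nfil3, which encodes a repressor that competes for D-boxes, fell by 0.79 ± 0.14 (log2), and the kinase gene Csnk1d rose by 0.24 ± 0.05. The median of the list was 0.11. In eWAT Rora, whose product activates through ROR elements, rose under the KO label (0.64 ± 0.08) and the WT label (0.84 ± 0.10). The list had 3 members higher and 3 lower under the KO label, with Arntl2 lower (-0.63 ± 0.11), and 2 higher and 4 lower under the WT label, with Cry2 lower (-0.39 ± 0.06). These 6 of 14 under each label stand near the 39.5% of all genes called under the KO label and below the 53.8% called under the WT label. Between the labels on the control diet Cry2 was lower (-0.20 ± 0.06), though an offset for GC content put Cry2 at 0.01, and Csnk1e passed the interaction (0.27 ± 0.09) but stood at -0.02 with that offset. The same offset ended the call of Cry2 (-0.06) under the WT label. Without the 4 macrophage-labelled libraries that go against their label the calls of Nfil3 and Csnk1d ended.

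Of 10 clock output genes, Wee1, a cell cycle kinase gene with E-boxes, rose with the ketogenic diet in macrophage-labelled libraries (0.89 ± 0.11), in eWAT labelled KO (0.97 ± 0.15) and in eWAT labelled WT (1.24 ± 0.15). In macrophage-labelled libraries 4 rose and 0 fell, where 30.4% of all genes were called, among them Cdkn1a, a cell cycle inhibitor gene (0.72 ± 0.08), and Tspan4 (0.45 ± 0.08), whose call ended without the 4 libraries that go against their label. In eWAT 2 rose and 1 fell under the KO label, with Usp2 higher (0.60 ± 0.21) and Tspan4 lower (-0.50 ± 0.13), and 2 rose and 2 fell under the WT label, with Ppard lower (-0.47 ± 0.07) and Nampt higher (0.45 ± 0.11), a call that ended with the GC offset (0.19). Of all genes 39.5% were called under the KO label and 53.8% under the WT label, shares above those of these 10 genes. Of 9 genes that glucocorticoids induce, 7 rose and 0 fell in macrophage-labelled libraries, 4 rose and 0 fell in eWAT labelled KO, and 6 rose and 2 fell in eWAT labelled WT, beside 30.4%, 39.5% and 53.8% of all genes called in these 3 comparisons. The 4 of 9 under the KO label is near the share of all genes. Tsc22d3, which encodes GILZ, rose in the same comparisons, in that order, by 0.86 ± 0.08, 1.14 ± 0.10 and 1.28 ± 0.12, and Pdk4, a kinase of pyruvate dehydrogenase that fasting also induces, by 1.54 ± 0.15, 1.02 ± 0.14 and 1.497 ± 0.26. Mt2, a metallothionein gene, rose in macrophage-labelled libraries (1.92 ± 0.19), whereas Mt1 (-1.05 ± 0.19) and Mt2 (-1.16 ± 0.21) were the 2 that fell in eWAT labelled WT. Between the labels Ppard (-0.80 ± 0.18) and Por (-0.41 ± 0.13) were lower in eWAT on the control diet, and Ppard (0.91 ± 0.18) and Mt1 (1.00 ± 0.23) passed the interaction. The calls of Cry2 and Por between the labels also ended when any 1 of 10 and of 9 of the 14 libraries was left out, and the call of Usp2 between the diets under the KO label ended when any 1 of 6 of 15 libraries was.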

How the data were processed

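The authors' deposited values are raw counts of reads per gene, for which the submitters' processing notes name the tools STAR 2.7.8a and Trim Galore 0.6.0 and the build mm10; no source used here names the annotation release. Per the labels' protocols, eWAT libraries came from a stranded mRNA kit, and libraries of macrophage-labelled cells from an ultra low input kit without strand. Accordingly counts on the stranded column were used for eWAT and unstranded counts for the others. Rows of unassigned reads, 19.4% to 32.9% per library, were left out. Each comparison was fitted with edgeR 4.0.16 (filterByExpr, TMM, robust quasi-likelihood test, two-sided) on the groups compared, with Benjamini-Hochberg adjustment over all genes tested and a threshold of 0.05; SE was taken from the log2 fold change and its F statistic. Macrophage-labelled diets were compared with genotype labels pooled. Levels are CPM with TMM factors set within each tissue. DESeq2 1.42.0, limma-voom 3.58.1, a GC offset, replicate blocks and other choices served as alternatives, and the scripts were tested on simulated data. The members and lists were chosen with earlier results of these data known. All 10 members are named in every comparison, and of each other list at most 3 called genes with the lowest p; some genes that this rule names are not reported here. Same-numbered eWAT libraries on the ketogenic diet deviated together (all 8 pairs of labels over a correlation of 0.1, the lowest being 0.102); a replicate block changed no member's call there.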

Additional observations from a re-analysis of the deposited data

Results flagged for a closer look

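One group held a library far from the rest. In eWAT labelled KO on the control diet, replicate 1 had 22.41 CPM of Arntl, while the other 6 libraries had 3.17 to 9.33 CPM, so that its gap to the nearest library exceeded the limit of Dixon's test at 95%. It was the 1 such library in 60 groups of values tested, a smaller share than the about 5% that chance alone gives. The same library was lowest of its group in Dbp (14.3 CPM), Per2 (7.71 CPM) and Ciart (0.357 CPM).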

How the results depend on the processing

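The count of members called was 10 between the diets in macrophage-labelled libraries under all other settings tried and with any 1 library left out, and 4 without the 4 libraries that go against their label, an alternative added after seeing the data that leaves 2 ketogenic libraries. Over all genes 4044 to 6391 were called there with 1 library left out and 856 without the 4 libraries. In eWAT labelled WT the count of members was 5 of 10 without the low-count filter, and 6 to 10 when 1 library was left out. Over all genes 8198 were called there without the filter and 7830 to 8510 with 1 library left out. In eWAT labelled KO the count of members was 7 with a replicate block and GC offset, where 5693 of all genes were called. The block alone added Arntl (-1.14) under the WT label and Per3 (0.31) and Dbp (0.57) under the KO label between the diets, and ended the call of Cry1 (0.26) between labels on the control diet. Between labels on the control diet it was 0 without the filter, with a replicate block and with all 4 groups fitted together, and 0 to 6 when 1 library was left out. The interaction gave 1 (Cry1) with a replicate block, with or without the GC offset, where 328 (with offset) and 1657 (without) of all genes were called. Apart from the ketogenic eWAT libraries, replicate numbers met no rule of pairing, so these blocks rest on a shared number. Per1 under the KO label stood at 61.15 CPM by total count in ketogenic macrophage-labelled libraries.

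Values that changed direction were all small or uncalled, except Cry2 and Csnk1e, and the cause was not tested. With limma-voom Per2 was -0.0096 and Dbp -0.010 between eWAT labels on the control diet, Tef 0.0094 on the ketogenic diet, Per2 0.0998 and Dbp 0.164 in the interaction, and Per3 -0.010 and Tef -0.018 between macrophage labels. With the GC offset Cry2 was 0.0096 (control diet), Per3 -0.017 (ketogenic), and Nr1d1 -0.095 and Csnk1e -0.018 in the interaction. With the replicate block Per2 was -0.014 (control diet), Per2 0.107 and Dbp 0.134 in the interaction, and Per2 0.00995 between macrophage labels. With both, Cry2 was 0.0065, Nr1d1 -0.090 and Csnk1e -0.017 in the interaction, and Per2 0.071 between macrophage labels. With 1 library left out, ranges were, between eWAT labels on the control diet, -0.058 to 0.27 (Per2) and -0.020 to 0.29 (Dbp); on the ketogenic diet, -0.43 to 0.43 (Arntl), -0.040 to 0.17 (Per2), -0.095 to 0.14 (Per3), -0.051 to 0.14 (Nr1d2), -0.045 to 0.23 (Dbp) and -0.15 to 0.078 (Tef); between diets under the KO label, -0.77 to 0.13 (Arntl). They were, between macrophage labels on the control diet, -0.17 to 0.0089 (Arntl), -0.24 to 0.22 (Per2) and -0.0030 to 0.20 (Per3); and, on the ketogenic diet, -0.21 to 0.31 (Arntl), -0.048 to 0.26 (Nr1d1), -0.023 to 0.30 (Nr1d2) and -0.069 to 0.27 (Per3).

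Over all genes, calls between eWAT labels on the control diet numbered 2677, against 1141 with the GC offset and 820 with block and offset; on the ketogenic diet 512, against 1586 with the block, 1741 with block and offset, 1041 by DESeq2 331 without the filter and 205 to 788 when 1 library was left out; in the interaction 1425, against 245 with the GC offset and 328 with block and offset. Between macrophage labels on the control diet they numbered 14, against 115 by DESeq2, 27 by limma-voom, 5 with the GC offset and 9 with all 4 groups fitted together; between these labels under the ketogenic diet there were 0, against 15 by DESeq2, 103 without the filter and 7 with the block. Between diets in macrophage-labelled libraries they numbered 5348, against 856 without the 4 libraries.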

Other observations

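At the opposite end of the ranking over 30 eWAT libraries, read after its values were seen, the genes least like Arntl were Hlf, which encodes the third PAR bZIP protein (r = -0.92), and the members Nr1d2 (-0.92), Per3 (-0.92), Dbp (-0.91) and Tef (-0.90). Those least like Dbp were Dtx4 (-0.92), Arntl (-0.91), Sash1 (-0.84), Npas2 (-0.84) and Arhgap29 (-0.82). These are descriptions over libraries that share a kit.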
